A study of Mus musculus with 9 samples.

Results

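Among the 64843 pooled H3K27ac peaks of primary oviductal muscle cells, 3979 lay in gene deserts and also carried H3K4me1. A region was kept when the pooled H3K27ac peak overlapped peaks in at least 2 of the 3 H3K27ac replicate lists and a pooled H3K4me1 peak. It had to lie on chromosomes 1 to 19 or X, outside every protein-coding gene body and every window of 1 kb to either side of an annotated transcript start, with its midpoint over 100 kb from the nearest protein-coding start. The regions were thus selected on measured peaks, so that the presence of both marks is how they were chosen and not a finding. They made up 10.2% of the 38852 double-marked peaks on these chromosomes. They were compared with 6051 double-marked intergenic regions chosen by the same marks within 100 kb of a coding start, called near-gene regions here, and with 15707 double-marked distal regions inside coding genes.

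The cells came from the digested oviducts of WT mice, 8 to 12 weeks old and on day 2 of pregnancy after mating with a stud male, and were plated for some hours before fixation. ChIC-Seq, in which an antibody brings protein A fused to MNase to chromatin so that the nearby DNA is cut and released, was run with antibodies to H3K27ac (3 samples), H3K4me1 (3 samples) and IgG as control (3 samples). The labels do not say that the replicates came from separate animals, so that p-values measure only the spread between these samples, which may be technical. The series concerns prostaglandin signalling in oviductal muscle, and the labels give its purpose for these libraries as finding binding sites. All samples shared genotype and day, so that no comparison between conditions was possible.

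H3K4me1 is placed on nucleosomes at enhancers, both poised and active, while H3K27ac is added by CBP and p300 at active enhancers and promoters. Gene deserts are long stretches without protein-coding genes. Several are known to hold distant enhancers of developmental genes and genes of growth control at their borders, as in the desert downstream of Myc. The nearest gene in a linear map need not be the gene that an enhancer acts on, and the gene names below only say where a region is.

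The replicate calls rested on 40551842 to 78891920 treatment fragments against 3110985 to 3713369 IgG fragments, and the authors scaled the larger library to the smaller. H3K27ac replicate 1 stood apart, with 152860 peaks against 99005 and 93660 in replicates 2 and 3, and it was the only list called against IgG replicate 1. Of 15 smooth muscle genes such as Acta2 and Myh11, 9 had an H3K27ac peak at a start in at least 2 replicates, as did 54.3% of all protein-coding genes. This held for 1 of 10 epithelial, 2 of 10 blood and 1 of 6 neuronal genes. The smooth muscle count was thus near the share over all genes, and the part of other cells in the regions was not tested.

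Sequence from 5 of the 6 named regions with the most matches to the AP-1 motif is shown first, since among the motifs searched AP-1 had the widest gap in percentage points to flanking sequence. AP-1 is the dimer of FOS and JUN proteins that binds enhancers in many cell types. Each line gives the 200 bases of the region with the most matches to TGANTCA, a palindrome that reads the same on both strands, with the matches in capitals. All lines are the plus strand of GRCm38, and all 5 regions had a peak in all 6 replicate lists. The windows were picked for their matches, so that they show what the motif looks like in place and carry no count.
Rasgrp1 to Thbs1, chr2:117742140-117742339: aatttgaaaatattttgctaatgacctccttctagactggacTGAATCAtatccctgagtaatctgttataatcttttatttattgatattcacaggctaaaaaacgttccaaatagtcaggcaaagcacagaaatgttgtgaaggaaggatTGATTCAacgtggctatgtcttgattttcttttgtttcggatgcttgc
Fam198b to Gria2, chr3:79988482-79988681: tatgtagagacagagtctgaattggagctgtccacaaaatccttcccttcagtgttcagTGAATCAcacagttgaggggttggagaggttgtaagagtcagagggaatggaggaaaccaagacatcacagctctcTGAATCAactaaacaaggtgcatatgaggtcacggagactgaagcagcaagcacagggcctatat
Npvf to Nfe2l3, first region, chr6:50976882-50977081: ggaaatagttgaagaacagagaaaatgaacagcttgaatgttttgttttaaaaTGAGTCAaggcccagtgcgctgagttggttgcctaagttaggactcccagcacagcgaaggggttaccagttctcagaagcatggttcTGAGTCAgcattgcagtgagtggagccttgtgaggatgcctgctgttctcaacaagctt
Npvf to Nfe2l3, other region, chr6:51161695-51161894: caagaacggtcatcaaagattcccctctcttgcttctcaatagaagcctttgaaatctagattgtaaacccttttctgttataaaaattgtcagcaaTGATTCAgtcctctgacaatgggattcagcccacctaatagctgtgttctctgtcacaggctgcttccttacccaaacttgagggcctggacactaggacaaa
Tmem167 to Atp6ap1l, chr13:90512557-90512756: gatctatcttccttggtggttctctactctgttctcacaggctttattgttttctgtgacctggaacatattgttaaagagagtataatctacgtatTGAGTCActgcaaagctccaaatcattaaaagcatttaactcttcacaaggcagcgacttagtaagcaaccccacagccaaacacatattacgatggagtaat

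The desert regions were short and weakly covered. Their median length was 974 bp, with quartiles of 533 and 1822 bp and a maximum of 21687 bp. The authors' pileup, the mean fragment coverage scaled to the IgG depth, had a median of 3.65 and ranged from 3.07 to 95.8. The median fold enrichment over IgG, with quartiles of 1.76 and 1.95, was 1.84 in the pooled H3K27ac call. Near-gene regions were longer, at a median of 1131 bp, with a median pileup of 4.25. Regions inside genes had medians of 1080 bp and 3.79. Together the desert regions covered 5.76 Mb, of which 84.6% lay under pooled H3K4me1 peaks.

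The midpoints lay a median of 228 kb from the nearest protein-coding start, with quartiles of 151 and 373 kb. Of the regions, 2298 lay over 200 kb away, 540 over 500 kb and 64 over 1000 kb. At the limit of 100 kb, the 3 regions just inside the desert class had midpoints 100.1, 100.1 and 100.2 kb from a start and pileups of 3.48, 3.46 and 3.24. The 3 just outside it lay at 99.9 kb with pileups of 5.3, 3.77 and 4.81.

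The density of the regions fell with distance from genes. Desert sequence spanned 779 Mb and held 5.10 regions per Mb, against 8.84 per Mb in 685 Mb of near-gene intergenic sequence and 16.7 per Mb inside coding genes. The density in deserts was thus 0.578 of that near genes. All pooled H3K27ac peaks, double-marked or not, numbered 8.31 per Mb in deserts, 17.6 near genes and 31.1 inside genes. Within deserts the density of the double-marked regions went from 7.46 per Mb at 100 to 200 kb, through 6.06 at 200 to 400 kb and 3.76 at 400 to 800 kb, to 1.01 per Mb beyond 800 kb. The length and coverage of the regions changed less along the same bins, from a median of 1040 bp and a pileup of 3.77 at 100 to 200 kb to 854 bp and 3.51 beyond 800 kb. Fold enrichment stayed between 1.83 and 1.85 at the median of all 4 bins. The share of soft-masked repeat in desert sequence rose from 38.0% to 43.8% over these bins and its GC content fell from 40.9% to 37.1%, and their part in the densities was not tested.

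**Figure D1:**
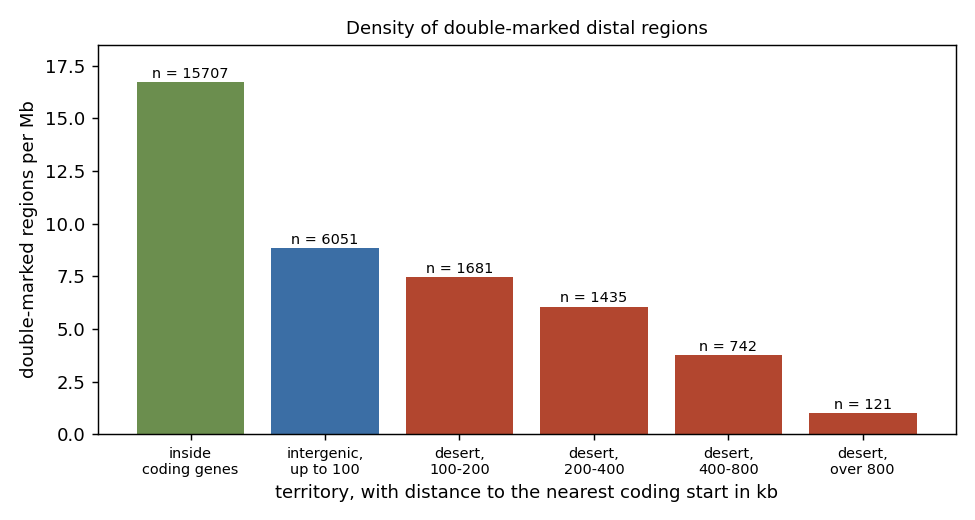
Double-marked regions per Mb of sequence (y axis) inside coding genes, in intergenic sequence up to 100 kb from a coding start, and in 4 bins of desert sequence by distance in kb (x axis), each bar with its number of regions and no error bar, since a pooled call gives 1 value. The bars step down from 16.7 per Mb inside genes to 1.01 per Mb beyond 800 kb.

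Chromosomes differed in density. Chromosome 10 was densest with 369 desert regions at 9.82 per Mb, followed by chromosome 13 with 8.77 and chromosome 15 with 8.23 per Mb. Chromosome X had 57 regions at 0.994 per Mb, below every autosome, the lowest of which was chromosome 11 at 3.47 per Mb. Chromosome X was also lowest near genes, at 1.85 per Mb. The ratio of desert to near-gene density was below 1 on all 20 chromosomes measured, from 0.304 on chromosome 11 to 0.858 on chromosome 13.

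The regions were spread unevenly over the deserts, and how far this departs from an even spread was not tested. Of 1908 stretches between adjacent protein-coding starts with any desert sequence, 789 held at least 1 region and 258 held exactly 1. Of 1225 stretches between adjacent protein-coding starts with at least 100 kb of desert sequence, 570 (46.5%) held no region at all. The 102 fullest stretches held 50% of the regions. The 10 fullest stretches held 521 regions, or 13.1%, in 1.86% of the desert sequence. Of the 3979 regions, 54.3% had another within 10 kb, against 48.3% of the near-gene regions and 65.1% of those inside genes. The longest stretch with no region ran between Cntnap5b and Cdh20 on chromosome 1, with 4131 kb of desert sequence.

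The fullest stretch ran downstream of Myc, the transcription factor that drives cell growth, to the gasdermin gene Gsdmc (chr15:61987422-63808759), with 88 regions at 55.6 per Mb. Of these 88 regions, 84, 81 and 75 had a peak in H3K27ac replicates 1, 2 and 3, and 82, 81 and 70 in the H3K4me1 replicates. The long noncoding RNA gene Pvt1, which follows Myc, held 20 of them. The stretch between Adamts5, which encodes a protease that cleaves the proteoglycans aggrecan and versican, and N6amt1 (chr16:85901828-87354185) held 84 regions at 68.2 per Mb. A peak was present at 81, 72 and 80 of these in the H3K27ac replicates and at 72, 70 and 79 in the H3K4me1 replicates. A peak in all 6 lists was present at 53 of the 88 regions and 57 of the 84, while the share was 47.0% over all desert regions and 48.2% over all double-marked peaks.

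Between Rasgrp1, an activator of Ras, and Thbs1, the matricellular protein thrombospondin 1 that can activate latent TGF-beta, 60 regions filled 26.6% of the desert sequence (chr2:117343001-118111876). This was the highest covered share among the 10 stretches, which ranged down to 1.58%. Of the 60, 25 had a peak in all 6 lists. The density there was 107 regions per Mb, and the processed transcript Gm13986 overlapped 25 of the regions. A further 60 regions lay between Nmbr, the neuromedin B receptor, and Cited2, a coregulator that binds CBP and p300, at 22.2 per Mb of a much longer desert of 2701 kb, and 29 of these had a peak in all 6 lists. Between Zeb2, a repressor of epithelial genes, and the activin receptor gene Acvr2a there were 47 regions in 3461 kb. In the plot of positions along the stretches these 47 stood in a group next to each gene with a wide gap between them.

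The other fullest stretches held 34 to 40 regions each. They ran from Nrsn1 to Hdgfl1 (40 regions), from C030005K15Rik to Atp2b1, a calcium pump of the plasma membrane (37), and from Akr1e1 to the zinc-finger factor Klf6 (36). Between Ptger4, the EP4 receptor for prostaglandin E2, and the endocytic adaptor gene Dab2 there were 35 regions, and between Tnc, the matrix protein tenascin C, and Pappa, a protease of IGF-binding proteins, there were 34. The median pileup of the regions in each of the 10 stretches was 3.48 to 3.96, around the median of 3.65 over all desert regions.

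**Figure D2:**
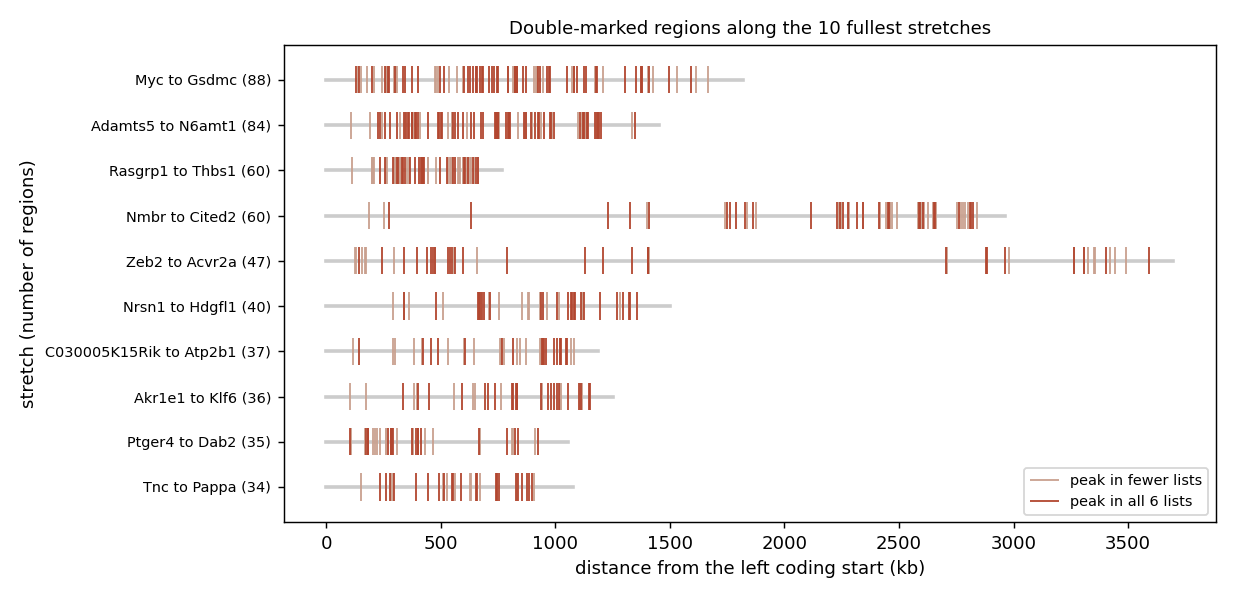
Each row is 1 of the 10 stretches between adjacent coding starts with the most desert regions (number in brackets), the x axis is the distance from the left start in kb, the grey line is the whole stretch and each tick is the midpoint of a region, dark where all 6 replicate lists had a peak. Regions spread over most of the Myc, Adamts5 and Thbs1 stretches, while those between Zeb2 and Acvr2a leave the middle nearly empty.

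The 10 desert regions with the largest product of length and pileup were 9824 to 21687 bp long. All 10 had a peak in all 6 lists, for which an overlap of 1 bp sufficed, so that such long regions meet it more easily than the 47.0% of all desert regions that did. The longest lay 165 kb from Moxd1 and 207 kb from Ccn2, the connective tissue growth factor gene (chr10:24377899-24399585), with a pooled pileup of 5.78. The highest fold enrichment among the peaks that a list placed there, the value given for single regions from here on, was 2.06, 1.93 and 2.04 in H3K27ac replicates 1, 2 and 3 and 2.05, 2.01 and 1.83 in the H3K4me1 replicates. H3K27ac peaks covered 86.4%, 70.4% and 51.4% of it in the 3 replicates, and H3K4me1 peaks 41.0%, 43.4% and 27.7%. The interval is the pooled H3K27ac peak, chosen for its length and pileup in that mark, and pooled H3K4me1 covered 80.7% of it.

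A pair of these regions lay in the Rasgrp1 to Thbs1 stretch, at 365 kb (chr2:117740765-117753327) and 205 kb (chr2:117899707-117913660) from Thbs1, and were 12563 and 13954 bp long. In the first, fold enrichment was 1.92, 1.88 and 1.96 in the H3K27ac lists and 1.74, 1.80 and 1.70 in the H3K4me1 lists. In the other it was 1.92, 1.75 and 1.86, and 1.82, 1.74 and 1.97. The values of the 2 marks overlapped in the other region and not in the first, but both regions were chosen for their length and pileup in H3K27ac. Another pair lay between Npvf and the transcription factor gene Nfe2l3, at chr6:51160846-51173999 and chr6:50969870-50980721, with a pooled pileup of 7.64 and 5.46. A region of 17529 bp lay 493 kb from Tnc and 585 kb from Pappa (chr4:64530799-64548327). In H3K4me1 its fold enrichment was 1.88, 2.27 and 2.13, and in H3K27ac it was 1.74, 1.69 and 2.04.

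The remaining 4 of the 10 included chr13:28750582-28760405, 198 kb from Sox4, a SOX-family transcription factor gene, with 9824 bp and a pooled pileup of 6.23. H3K4me1 covered 99.5% of it in the pooled call. A region of 13511 bp lay between Ubash3b and Sorl1 (chr9:41538591-41552101), 8.53 kb from the let-7 family microRNA gene Mirlet7a-2. The others were chr3:79987996-79999121, 108 kb from Fam198b, and chr13:90511479-90523043, 382 kb from Atp6ap1l.

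The highest pooled fold enrichment, 6.99, belonged to a region of 201 bp at chr12:3109875-3110075 with a pileup of 95.8. All of its bases were soft-masked as repeat, and no coding start lies between it and the left end of the chromosome. Its fold enrichment was 8.07, 8.66 and 4.56 in H3K27ac and 7.07 and 6.14 in H3K4me1 replicates 1 and 2, with no peak in H3K4me1 replicate 3. The next 4 by this measure were unlike it, with pileups of 6.12 to 11.3, lengths of 2172 to 4692 bp and soft-masked shares of 9.02% to 29.0%. Among them, a region at chr4:95160176-95162347 lay 109 kb from Jun, which encodes a subunit of AP-1, and overlapped the noncoding gene Junos. Its fold enrichment was 2.52, 2.15 and 2.74 in H3K27ac and 1.93, 1.77 and 1.79 in H3K4me1, the choice of the region having rested on its pooled H3K27ac fold. The other 3 lay 145 kb from Ccdc54 and 1295 kb from Cblb (pooled fold 3.00), 128 kb from Gm21954 and 182 kb from Mab21l1 (2.98), and 515 kb from Klf6 (2.83).

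Beyond 800 kb, 52.9% of the 121 regions had a peak in all 6 lists, against 44% at 100 to 200 kb. Of the 5 farthest, 1 had a peak in all 6 lists, at chr14:91724733-91726212 between the protocadherin genes Pcdh20 and Pcdh9, 2160 kb from the nearer. Its fold enrichment was 1.47, 1.65 and 1.43 in H3K27ac and 1.61, 1.67 and 1.70 in H3K4me1. The region between Slc10a2 and Efnb2, 1707 kb away, lacked a peak in H3K4me1 replicate 2. The region between Prmt6 and Amy2a5, 1441 kb away, had a peak in H3K4me1 replicate 2 as its only one of that mark. The other 2 lay between Celf4 and Pik3c3, 2195 and 1667 kb from a start, and had peaks in 5 and 4 lists.

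Members of gene lists on muscle, matrix, signalling and other cell types were then placed at the borders of the deserts. Of 2114 protein-coding genes that bordered at least 100 kb of desert sequence, 1204 (57%) bordered at least 1 region, with a median of 1 region and 5.00 regions per Mb of that sequence. These 2114 were 9.77% of all protein-coding genes. The share at such a border was 63.1% of the transcription factor list and 55.4% of the secreted signals. It was 42.3% of the matrix genes and 27.3% of the prostaglandin genes, but 6.25% of the blood and immune genes and 0% of the epithelial genes. A region was counted for the gene on each side of it, and no test was made on these counts. The gene lists were chosen with earlier results of these data known, so that their counts are a description only. Of the extracellular matrix list, 11 of 26 genes bordered such a desert and all 11 bordered a region, with a median of 18 regions and 44.1 per Mb. Adamts5 and Thbs1 came first, followed by Tnc and by Fn1, the fibronectin gene, with 31 regions at 90.2 per Mb between 104 and 425 kb from its start. A peak was present at 23, 25 and 28 of the Fn1 regions in the H3K27ac replicates and at 25, 28 and 28 in the H3K4me1 replicates.

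Of 65 secreted signals and their inhibitors, 27 of the 36 that bordered a desert bordered a region (75%), at 13.1 per Mb. Inhba, which encodes the activin A subunit, had 41 regions, 29 of them towards Sugct and 12 towards Gli3. Pdgfc, a platelet-derived growth factor gene, had 25 regions, and the Wnt antagonist gene Dkk2 had 20. Ccn2 had 14 regions in only 170 kb of desert, or 82.4 per Mb, with a peak at 12, 13 and 13 of them in H3K27ac and at 14, 11 and 13 in H3K4me1.

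Of 84 transcription factors of mesenchyme and of the mullerian duct, from which the oviduct develops, 42 of 53 bordered a region (79.2%), at 9.06 per Mb. Behind Zeb2 came Nr2f2, the nuclear receptor COUP-TFII, with 43 regions on both its sides. It was followed by Sox4 with 23. A peak was present at 22, 19 and 14 of them in the H3K27ac replicates and at 22, 22 and 16 in the H3K4me1 replicates. Pgr, the progesterone receptor gene, fell outside the naming rule and was picked after its values were seen. It had 9 regions in 117 kb of desert towards Trpc6, of which 9, 9 and 9 had a peak in the H3K27ac replicates and 8, 9 and 9 in the H3K4me1 replicates. They lay 146 to 204 kb from its start and the longest was 11616 bp.

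Of 22 prostaglandin genes, 6 bordered a desert and 5 of those a region (83.3%), at 12.8 per Mb. The 35 regions next to Ptger4 lay 106 to 925 kb from its start, and a peak was present at 32, 32 and 27 of them in H3K27ac and at 34, 34 and 33 in H3K4me1. Ptgfr, the receptor for prostaglandin F2 alpha, had 6 regions 101 to 210 kb away, of which 5, 6 and 6 were present in H3K27ac and all 6 in each H3K4me1 list. The cytosolic phospholipase gene Pla2g4a also had 6 regions, but in 2874 kb of desert, or 2.09 per Mb. Ptger3, the EP3 receptor gene, had 4, of which 4, 2 and 2 had a peak in the H3K27ac replicates.

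Of 24 smooth muscle genes, 3 (12.5%) bordered at least 100 kb of desert sequence, near the 9.77% of all protein-coding genes, and only Sgcd, the delta-sarcoglycan gene, bordered a region, a single one 885 kb from its start, or 0.907 per Mb over the 3 genes. Of the cadherin genes, 13 of 14 stood at a desert border and 8 of these 13 (61.5%) were next to a region, at 1.36 per Mb. Cdh11, a cadherin of mesenchymal cells, had 35 regions, while Cdh2 and Cdh8 had 5 each and Cdh18 had 3. The Cdh11 and Cdh8 counts share the 2 regions that lie between these genes. None of the 16 epithelial genes bordered 100 kb of desert, though Sox17 had 1 region in a shorter one. Of 16 blood and immune genes only Ptprc did, with 13 regions, or 13.5 per Mb, that also bordered Nr5a2. Of 16 neuronal genes 3 did, at 6.73 per Mb, and all 3 bordered a region, namely Gria2 with 7 regions, Syt1 with 3 and Stmn2 with 3.

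Of the 3979 regions, 810 (20.4%) overlapped the body of a gene that is not protein-coding, against 14.1% of near-gene regions. These bodies belonged to 277 lincRNA genes and smaller numbers of other types. Besides Gm13986 and Pvt1, the genes with the most regions were 2610307P16Rik (20 regions), Gm49171 (19) and Gm41333 (18). Mir99ahg, the host of a let-7 and miR-99 cluster, held 12. A microRNA gene lay within 20 kb of 86 regions (2.16%), against 3.21% of near-gene regions, and Mir30a had 4 such regions, the nearest at 1.53 kb.

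Peaks of the single replicates were used to compare deserts with sequence near genes, 1 value per list. In deserts, 20.7%, 42.3% and 42.2% of the peaks of H3K27ac replicates 1, 2 and 3 overlapped a pooled H3K4me1 peak. Near genes the same shares were 31.4%, 46.9% and 45.9%. Of the H3K4me1 replicates' desert peaks, 24.4%, 29.2% and 29.6% overlapped a pooled H3K27ac peak, against 33.7%, 41.7% and 42.0% near genes. The share of peaks that overlapped the other mark was thus lower in deserts in all 6 lists, with a mean difference of -8.88 ± 3.86 percentage points (SD, n = 6 lists). An exact two-sided sign-flip permutation test gave p = 0.0313, the smallest that 6 lists allow, and 0.0625 after Benjamini-Hochberg adjustment over the 2 tests given here, which misses the threshold of 0.05. The 5 tests planned gave an adjusted p of 0.0391, but 3 of them were on values at the selected regions and are left out. The test takes the lists as independent, but H3K27ac replicate 2 and H3K4me1 replicates 1 and 2 shared IgG replicate 2 as control, both replicates 3 shared IgG replicate 3, and all lists of a mark were set against the same pooled peaks. Among list peaks with a −log10 p of at least 1.3 the mean difference was -3.10 and missed the threshold (exact permutation p = 0.25). In the H3K27ac lists desert peaks were shorter than near-gene peaks, at medians of 497 to 514 against 525 to 549 bp. They were not shorter in every H3K4me1 list, and the part of peak length was not tested. When only peak midpoints were compared, the difference in the share with the other mark was -7.62. Pooled H3K27ac peaks were also sparser in deserts, at 8.31 per Mb against 17.6 near genes. The part of such density in the overlaps was not tested. Inside coding genes the shares with the other mark were 41.5%, 56.9% and 56.5% for H3K27ac and 34.4%, 40.3% and 40.5% for H3K4me1.

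Among regions marked by both, those in deserts were found in single replicate lists more often than near-gene regions. The rule itself used presence in the H3K27ac lists and the pooled H3K4me1 call, and its requirement of 2 replicates was met by 74.5% of the pooled H3K27ac peaks in deserts and 59.9% of those near genes, so that these shares are given as a description with no test. A peak was present at 87.8%, 86.5% and 81.9% of desert regions in the H3K27ac replicates and at 87.3%, 88.1% and 87.8% in the H3K4me1 replicates. For near-gene regions the shares were 85.9%, 85.7% and 78.4%, and 82.6%, 83.3% and 82.5%. The difference was 3.47 ± 1.80 percentage points (SD, n = 6 lists), higher in 6 of 6 lists. It was 4.90 ± 0.31 in the H3K4me1 lists and 2.05 ± 1.38 in the H3K27ac lists (SD, n = 3 each). It came to 1.79 without H3K27ac replicate 1, where regions had to have a peak in both other replicates, and to 1.49 when peaks in all 3 were required. In both cases the remaining H3K27ac lists cannot differ by construction. Inside coding genes the shares were 84.2%, 84.7% and 79.5% in H3K27ac, below those of deserts. In H3K4me1 they were 87.3%, 88.5% and 88.1%, where the desert share was the same after rounding in replicate 1 and lower in replicates 2 and 3.

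A peak in all 6 lists was present at 1869 desert regions (47.0%), against 39.6% of near-gene regions and 42.6% of regions inside genes. Over all double-marked peaks, those at starts included, the share was 48.2%. All 3 H3K4me1 lists had a peak at 72.8% of desert regions, against 70.4% of all double-marked peaks, while 40 desert regions had an H3K4me1 peak only in the pooled call. Among desert H3K27ac peaks present in at least 2 replicates, 82.5% (95% exact binomial interval 81.4% to 83.5%, counting error only) overlapped a pooled H3K4me1 peak and so became members, against 83.9% near genes and 87.4% over all places.

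In the replicate lists the peaks at desert regions had lower fold enrichment than those at near-gene regions. These values too come from lists that the rule used, whose requirement of 2 replicates was met by 74.5% of pooled peaks in deserts, 59.9% near genes and 62% inside genes, and they are a description with no test. The median in the H3K27ac lists was 1.55, 1.58 and 1.57, against 1.68, 1.64 and 1.64 at near-gene regions. In the H3K4me1 lists it was 1.64, 1.65 and 1.67, against 1.70, 1.70 and 1.72. Desert minus near-gene, the difference was -0.072 ± 0.030 (SD, n = 6 lists) and negative in 6 of 6 lists. In the pooled H3K27ac call the medians were 1.84 in deserts and 1.87 near genes. Against regions inside genes the difference in the lists was -0.046 ± 0.021 and negative in 6 of 6 lists. The direction against genes turned in the pooled call, with medians of 1.84 in deserts and 1.83 inside genes.

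**Figure D3:**
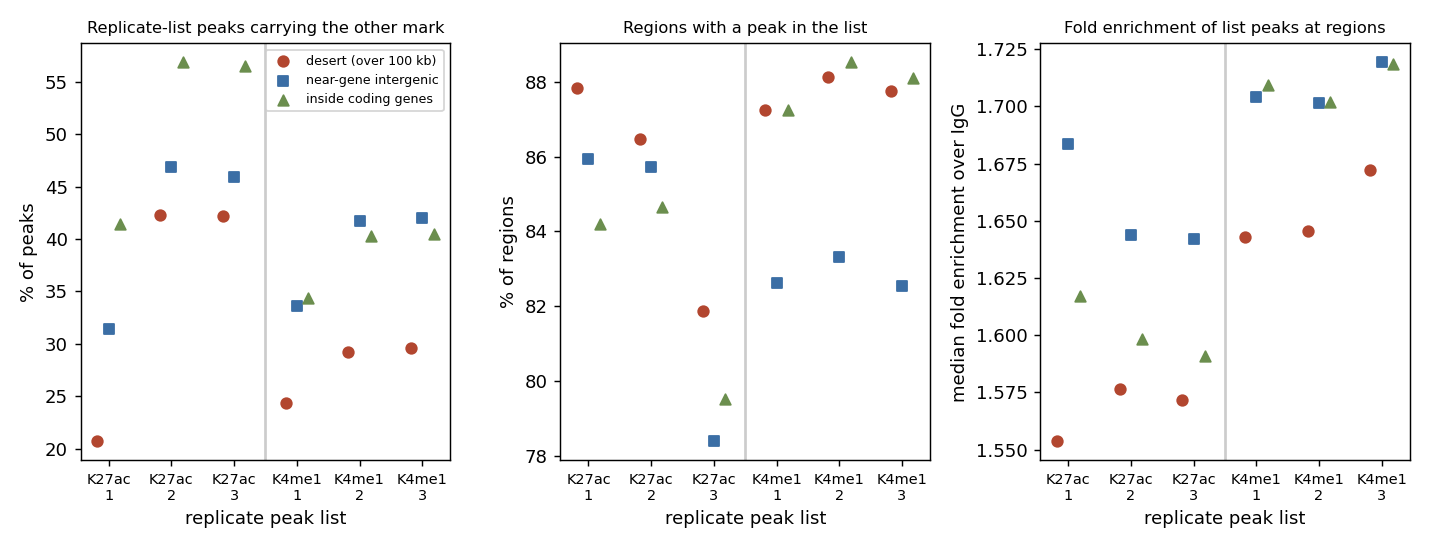
Values of the 6 replicate lists (x axis) for desert regions (circles), near-gene intergenic regions (squares) and regions inside coding genes (triangles): the % of list peaks that overlap a pooled peak of the other mark, the % of regions with a list peak, and the median fold enrichment over IgG of list peaks at regions. The y axes do not start at 0. Circles lie below squares in the left and right panels and above them in the middle panel in all 6 lists, and in the left panel H3K27ac replicate 1 has the lowest circle and the lowest square.

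Deserts held 24.2% of all peaks of H3K27ac replicate 1, but 15.1% and 14.9% of those of replicates 2 and 3. Of all peaks of the H3K4me1 replicates they held 15.5%, 14.8% and 14.6%. The marks differed by 3.05 percentage points (18 ± 5.31 against 15 ± 0.441, SD, n = 3 each), which was not larger than the spread between replicates (exact two-group permutation p = 0.5, adjusted 0.5, with 0.1 the smallest that 3 against 3 allows). The difference rested on H3K27ac replicate 1 and was -0.020 without it. Among list peaks with a −log10 p of at least 1.3 it turned to -3.79 (exact permutation p = 0.1).

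Peak coverage around the midpoints comes from the lists that the rule used, with the unequal filtering given above, and is a description. In deserts, H3K4me1 peaks of replicates 1, 2 and 3 covered 68.6%, 74.6% and 72.3% of the midpoints, and 39.7% to 41.9% of the positions 1 kb to the right. Near genes they covered 62.4%, 65.7% and 63.7% of midpoints and 30.4% to 33.3% at 1 kb. Inside coding genes the midpoint shares were 69.3%, 74.1% and 72.4%, close to those of deserts. At 5 kb to the right the desert and near-gene values drew together, at 13.8%, 14.0% and 13.4% in deserts and 14.4%, 13.9% and 13.3% near genes. H3K27ac peaks covered 70.0%, 66.2% and 60.5% of desert midpoints, against 64.7%, 63.8% and 56.9% near genes. At 5 kb to the right they covered 17.7%, 12.0% and 9.68% of desert positions, against 16.0%, 13.4% and 12.2% near genes. Inside coding genes H3K4me1 remained at 29.2% to 30.4% at 5 kb.

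**Figure D4:**
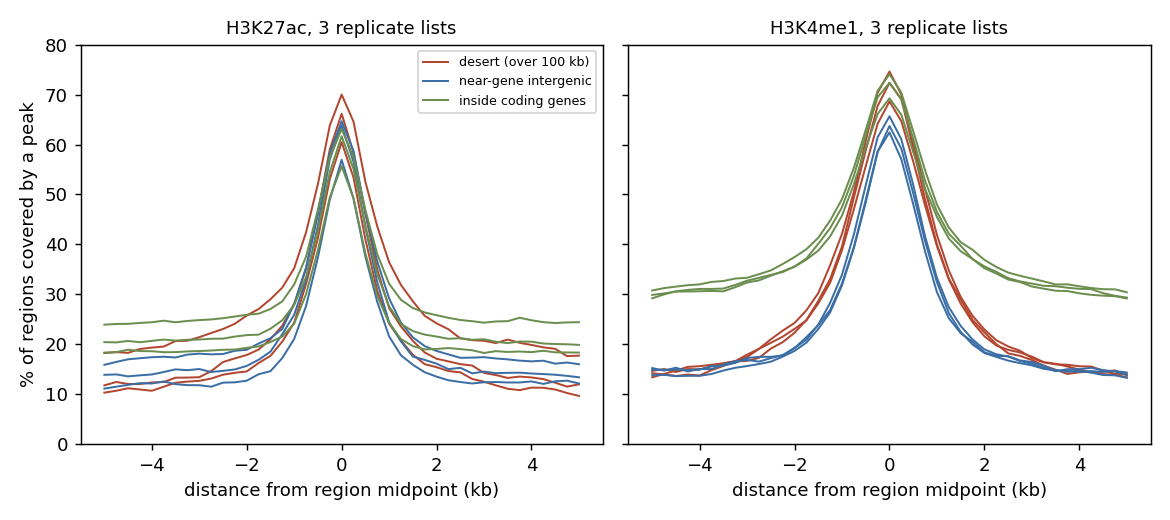
The % of regions covered by a replicate-list peak (y axis) by distance from the region midpoint in kb (x axis), for H3K27ac (left) and H3K4me1 (right), with 1 line for each of 3 replicates in each class. The H3K4me1 lines of desert regions lie above those of near-gene regions from the midpoint to 1 kb and meet them at 5 kb, while the lines of regions inside genes level off highest.

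In deserts, 845 H3K27ac peaks in at least 2 replicates overlapped no pooled H3K4me1 peak, and are called H3K27ac-only here. The name refers to the pooled call, since 42.5%, 16.6% and 15.6% of them overlapped a peak of H3K4me1 replicates 1, 2 and 3. They were shorter, with a median of 482 against 974 bp, and 39.4% of them had a peak in all 3 H3K27ac replicates, against 56.2% of the double-marked regions. Median fold enrichment in H3K27ac replicates 1, 2 and 3 was 1.48, 1.53 and 1.53 at H3K27ac-only peaks and 1.55, 1.58 and 1.57 at double-marked regions, higher at the latter in all 3. Of the H3K27ac-only peaks 8.40% were over 50% soft-masked, against 1.91% of the double-marked regions. Among desert H3K27ac peaks in at least 2 replicates, the share with H3K4me1 was 66.8% under 500 bp and 96.7% from 2000 bp. Near genes these shares were 65.6% and 97.5%. The part of length in these contrasts was not tested.

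By sequence, the median GC content of the desert regions was 40.5%, against 43.6% of near-gene regions and 41.5% of regions inside genes. All desert sequence had 39.3%, and GC was 40.4% both in the 300 bases at the midpoint and in the windows 5 kb to either side. The median soft-masked share of a desert region was 14.6%, with 17% near genes and 16.6% inside genes, while 39.8% of all desert sequence was soft-masked. In the 300 bases at the midpoint the CpG count was 0.193 of that expected from base composition, compared with 0.164 in the windows 5 kb to either side and 0.245 at near-gene midpoints.

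The AP-1 motif TGANTCA was present in 16.1% of these midpoint windows (639 of 3979), against 9.5% of the windows of the same length 5 kb to either side. At near-gene regions the shares were 15.7% and 9.44%, inside genes 13.1% and 8.98%, and over all pooled H3K27ac peaks 12.1% and 9.17%. The ratio of midpoint to flank was 1.69 in deserts and 1.67 near genes. By distance, the AP-1 share was 16.2% at 100 to 200 kb, 15.5% at 200 to 400 kb, 17.3% at 400 to 800 kb and 13.2% of the 121 regions beyond 800 kb. The share was 16.1% also at the H3K27ac-only desert peaks. Median fold enrichment was 1.55, 1.58 and 1.57 in the H3K27ac replicates, rounded, both for regions with and for regions without the motif. In the H3K4me1 replicates it was 1.640, 1.637 and 1.657 with the motif and 1.644, 1.649 and 1.676 without it. Regions with the motif had a peak less often in the H3K4me1 replicates, at 85.9%, 85.8% and 83.6% against 87.5%, 88.6% and 88.6%, and in H3K27ac replicates 2 and 3, but more often in H3K27ac replicate 1, at 90.1% against 87.4%. These differences were not tested.

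Other motifs were searched on both strands, and a match was counted whether or not it overlapped that of another motif. CATCTG, an E-box bound by HAND and TWIST factors, was present in 25.4% of desert midpoint windows against 21.1% of flanks, and GGAATG, the motif of TEAD factors that work with YAP, in 19% against 17%. The letters AGATAA, the motif of the GATA family, were at 21% and 21.1%. The RUNX family motif TGTGGT was at 20.5% and 19.9%. The ratio of midpoint to flank, in deserts and then near genes, was 1.20 and 1.08 for CATCTG and 1.12 and 1.19 for GGAATG. This ratio was 0.999 and 1.11 for AGATAA, and 1.03 and 0.996 for TGTGGT. The palindrome of the steroid receptors, GNACANNNTGTNC, was found in 33 midpoint windows (0.829%) against 0.465% of flanks. Near genes it was at 0.694% and 0.496%, and over all pooled peaks at 0.688% and 0.532%. The palindrome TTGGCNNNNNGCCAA of NFI factors was in 2 windows, and the MEF2 motif in 1.11% against 0.716% of flanks. The MEF2 shares near genes were 0.876% and 0.587%. The CArG box, bound by SRF, the factor that drives smooth muscle contractile genes, was in 1.51% of midpoints and 1.83% of flanks, so that it was not more frequent in the regions. The core of the CTCF motif, CCANNAGNNGGC, was in 1.06% of desert midpoints and 0.804% of their flanks, against 2.78% and 1.97% near genes and 2.25% and 2.22% over all pooled peaks. A match describes the letters only and does not show that a factor was bound.

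**Figure D5:**
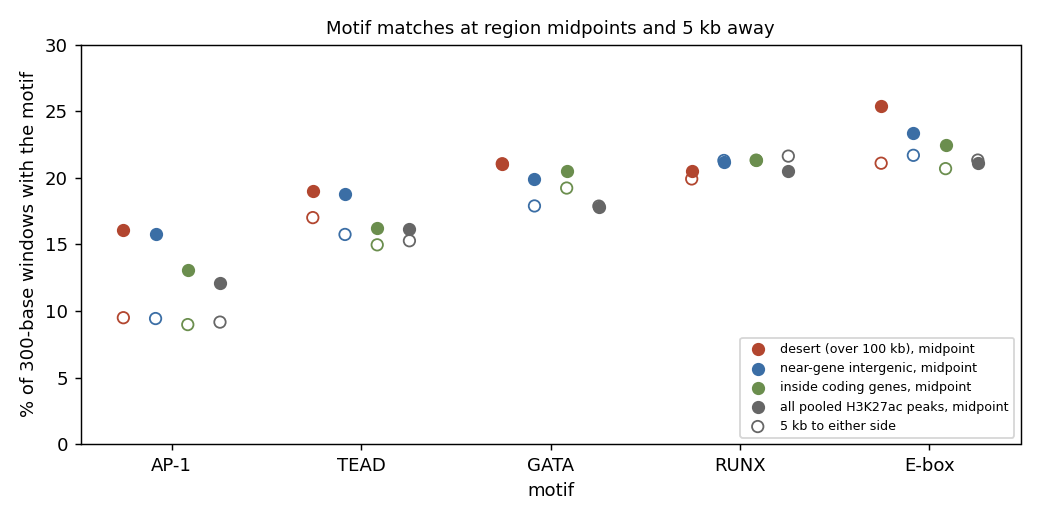
The % of 300-base windows that hold each of 5 short motifs (y axis), at region midpoints (filled) and 5 kb to either side (open), for desert regions, near-gene regions, regions inside coding genes and all pooled H3K27ac peaks. The gap between filled and open points is widest for AP-1, where desert midpoints reach 16.1% against 9.5% in the flanks.

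Within the 15 named regions on chromosomes other than 18 that had peaks in all 6 lists, whole-region counts of AP-1 ranged from 1 to 8 matches. The 2 long regions between Rasgrp1 and Thbs1 and the one between Fam198b and Gria2 held 8 each. The long region between Moxd1 and Ccn2 held 5 in 21687 bp, and the region between Akr1e1 and Klf6 held 4 in 4692 bp. Over all desert regions there were 3184 matches, or 0.553 per kb. None of the 15 had a match within 150 bases of its midpoint, and the broad calls give no summit.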

How the data were processed

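Peak lists were as deposited. Per the submitters' processing notes, reads were handled with cutadapt and Bowtie2 on GRCm38.p5 and peaks were called with MACS2. Settings of trimming and alignment are not given in the sources used here. Per the file headers, the authors called broad peaks in paired-end mode with MACS 2.2.7.1 at p-value cutoffs of 0.05 and 0.1, for each of 6 samples and on each mark's 3 replicates pooled. The deposited pileup is a signal, the mean fragment coverage scaled by the authors to the smaller library, which was IgG. The deposited fold enrichment is a ratio to the local IgG background, and the deposited p-value is on the −log10 scale. At this weak cutoff many peaks may be noise, and the shallow IgG libraries limit each call.

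Genes followed GENCODE mouse release 21. All peaks lay within the GRCm38 chromosome lengths. Overlap meant at least 1 bp. Sequences, soft-masking and windows came from the GRCm38 reference. Stretches ran between adjacent protein-coding starts. Lists were compared by exact permutation tests, in which the 64 sign patterns of 6 differences or the 20 assignments of 6 lists to marks were enumerated, two-sided. The regions and gene lists were chosen with earlier results of these data known. Regions were named by fixed rules: the 10 fullest stretches, the 10 largest by length times pileup, the 5 farthest, the 5 of highest fold enrichment and, per gene list, up to 4 bordering genes with the most regions. A gene and a sequence that met these rules are not reported here. Alternatives covered the distance limit, overlap, replicate and p-value requirements, repeats, start windows and leaving out each list. Interval and distance code was tested on 6000 simulated queries, of which 0 differed from a count base by base. Calculations used Python 3.11.15, numpy 2.4.6, pandas 2.3.3 and scipy 1.17.1.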

Additional observations from a re-analysis of the deposited data

How the results depend on the processing

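The number of desert regions was 2298 with a distance limit of 200 kb, 2236 when all 3 H3K27ac replicates had to have a peak, 2547 with at least 50% overlap and 2153 with a pooled −log10 p of at least 1.3. Under the same settings the density in deserts over that near genes was 0.488, 0.648, 0.643 and 0.487. It was 0.662 with a limit of 50 kb and 0.530 without regions in any annotated gene body, so that it stayed below 1 throughout. The difference in the share of peaks with the other mark was -3.10 (exact p = 0.25) when list peaks needed a −log10 p of at least 1.3, without adjustment. The difference in the share of regions with a peak was 1.49 with all 3 H3K27ac replicates required. The difference between marks in the share of peaks in deserts turned to -3.79 (exact p = 0.1, the smallest possible) with the same filter on list peaks. The AP-1 share was 28.6% in 600-base windows and 45.7% over whole regions, which hold more bases.

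Leaving out 1 H3K27ac list at a time, with a peak then required in both others, gave 2720 to 2957 regions and a density ratio of 0.599 to 0.626. Leaving out any 1 of the 6 lists gave differences of -9.91 to -8.14 for the other mark, 1.79 to 3.24 for regions with a peak and -0.080 to -0.062 for fold enrichment, and of -0.020 to 4.63 between the marks. With 5 lists the smallest sign-flip p is 0.0625. The values at selected regions carry no test. With same-numbered lists of the marks paired as a replicate block, the difference between marks was 3.05 (exact p = 0.25). The labels do not tie shared numbers to an animal, and replicates 2 and 3 but not 1 shared an IgG library between the marks. The pairing changed no call. Overlap judged at midpoints only, added after seeing the data, gave -7.62 and 5.83 for the first 2 differences (exact p = 0.0313 for the former).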
